A study of Mus musculus with 50 samples.

Results

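The 7 genes described here encode the enzymes that write DNA methylation and the enzymes that oxidise it. They are Dnmt1, Uhrf1, Dnmt3a, Dnmt3b, Tet1, Tet2 and Tet3, chosen by name and found as 7 of the 55011 gene symbols in a count table of mouse regulatory T (Treg) cells and their thymic progenitors. The rule uses no measured value, though the genes were chosen with earlier results of these data known. All 7 passed the filter on low counts in every fit.

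Methyl groups on the cytosines of CpG sites are lost by dilution when DNA is copied unless they are put back on the new strand. UHRF1 binds hemimethylated CpG sites behind the replication fork and brings in DNMT1, the maintenance methyltransferase, so both act mainly in cells that are copying DNA. DNMT3A and DNMT3B methylate CpG sites that carried no mark, and TET1, TET2 and TET3 oxidise 5-methylcytosine to forms that are diluted or cut out. In Treg cells the stable expression of Foxp3, the lineage's master transcription factor, is known to depend on loss of methylation at an intronic enhancer of the gene, to which TET enzymes contribute.

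RNA was sequenced from 50 libraries, each of 500 to 1000 double-sorted cells, in 16 groups, all from male mice. In the thymus, cells of the Foxp3-GFP reporter strain B6.Cg-Foxp3tm1Kuch/J were taken on day 5, 12 or 49 after birth (D5, D12, D49; 3 libraries a group). The progenitor termed P1 is CD4+CD8-CD25+Foxp3-, and P2 is CD4+CD8-CD25-Foxp3+. In the periphery, CD4+ Foxp3-GFP+ Treg cells were sorted at week 20 from visceral adipose tissue (VAT), ear skin, liver, lung and spleen of mice with the Foxp3tm3(HBEGF/GFP)Ayr allele on a B6.129(Cg) background, in which the Foxp3 gene drives GFP and the human diphtheria toxin (DT) receptor. The peripheral groups hold 3 libraries, or 4 for VAT, and are named in the sample titles as given PBS or DT, on 3 days in a row at 12 weeks of age, with 8 to 9 weeks of rest before sorting. The series text instead gives DT to littermates with and without the receptor, and the strain and wild-type genotype are entered alike in both arms, so they are called PBS-labelled and DT-labelled here.

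Total counts ran from 2521078 to 6981037 a library. Foxp3 was at 4.03 to 18.6 CPM (counts scaled to a library's total) in P1 and at 251 to 836.5 CPM in P2, and Il2ra, which encodes CD25, was at 100.4 to 138.5 CPM in P1 and 10.7 to 38.9 CPM in P2, each on the side its sort gate sets. Foxp3 was at 135 to 516 CPM in the peripheral libraries. After thinning every library to 2521078 counts, the 3 D12 P1 libraries had 24594 to 29413 genes with a count and D49 P2 libraries 2 and 3 had 27173 and 26840, against 16788 to 19109 in the other 13 thymus libraries. Where a call on the 7 genes was lost without D49 P2 libraries 2 and 3, or with the share of counts from low genes as a covariate, such a value stands beside it. In the periphery, ear skin had 27145 to 31555 such genes in the PBS-labelled and 28427 to 32018 in the DT-labelled arm. Spleen had 20148 to 25763 and 20545 to 23394, and PBS-labelled lung replicate 2 had 30874. The covariate was not fitted there, so the part of this in the tissue differences was not tested. The labels do not say that the libraries of a group came from separate animals, so p-values measure the spread between libraries, which may be technical. In such bulk samples, fewer cells of a type and less RNA per cell cannot be told apart.

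The promoters of the maintenance pair are shown first because both genes followed the replication genes across the groups, as the values below show. RefSeq start sites on GRCm38.p6 (mm10) give 12 promoter windows for the 7 genes, each from 250 bases before to 50 after a start, with 3 for Dnmt1, 2 for Uhrf1 and 3 for Dnmt3a. The windows shown for Dnmt1, chr9:20952574-20952873 on the minus strand, and Uhrf1, chr17:56304063-56304362 on the plus strand, were picked because they hold E2F words. Of the other Dnmt1 windows, chr9:20952930-20953229 and chr9:20959839-20960138, and the other Uhrf1 window, chr17:56303087-56303386, none does. The last of those for Dnmt1 and the one for Uhrf1 span the gene starts of the annotation below. A Dnmt3a window, chr12:3806730-3807029 on the plus strand, is shown for contrast. Each is written 5′ to 3′ on its gene's strand, with capitals on E2F sites and CCAAT boxes.
Dnmt1: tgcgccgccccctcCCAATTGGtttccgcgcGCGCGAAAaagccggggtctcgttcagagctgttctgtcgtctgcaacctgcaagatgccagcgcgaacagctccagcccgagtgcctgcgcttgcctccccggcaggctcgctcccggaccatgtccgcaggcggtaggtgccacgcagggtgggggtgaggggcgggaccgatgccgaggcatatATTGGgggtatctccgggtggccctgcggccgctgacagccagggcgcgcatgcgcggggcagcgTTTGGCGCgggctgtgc
Uhrf1: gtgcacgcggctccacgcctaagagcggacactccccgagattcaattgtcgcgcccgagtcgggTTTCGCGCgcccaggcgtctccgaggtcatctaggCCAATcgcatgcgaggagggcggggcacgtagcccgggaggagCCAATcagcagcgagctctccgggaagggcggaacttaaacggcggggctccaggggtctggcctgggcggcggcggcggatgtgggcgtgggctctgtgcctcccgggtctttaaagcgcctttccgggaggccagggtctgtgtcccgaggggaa
Dnmt3a: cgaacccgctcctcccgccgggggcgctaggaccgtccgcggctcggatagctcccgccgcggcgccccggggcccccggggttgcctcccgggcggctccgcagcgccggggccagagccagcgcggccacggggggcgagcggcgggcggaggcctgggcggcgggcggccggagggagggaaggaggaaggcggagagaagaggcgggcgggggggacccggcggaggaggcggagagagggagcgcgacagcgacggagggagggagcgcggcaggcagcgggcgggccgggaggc

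E2F factors switch on replication genes at the entry to S phase, and NF-Y binds CCAAT boxes. Both strands were searched for the E2F words TTTCCCGC, TTTGGCGC, TTTCGCGC and TTTGCCGC, and at least 1 of them was held by 744 of 32851 RefSeq promoter windows (2.26%). The Dnmt1 window shown holds TTTCGCGC on its minus strand 219 bases before the start, and TTTGGCGC on its plus strand 33 bases after it. The Uhrf1 window shown holds TTTCGCGC on its plus strand 185 bases before the start. None of the 4 words was found in the other 10 windows of the 7 genes. CCAAT, held by 37.4% of all windows, appears at 3 positions in this Dnmt1 window, of which the leading pair overlap on opposite strands, and at 2 in that of Uhrf1, and at 5 and 3 in the windows at their annotated gene starts. The Dnmt3a window has neither word, but 6 copies of the GC box GGGCGG, which is held by 35.7% of all windows. GC boxes also appear at 2 positions in the Dnmt1 window shown and at 3 in that of Uhrf1. The Dnmt1 and Uhrf1 windows shown each have 33 CpG sites and the Dnmt3a window 46, against a median of 7 over all windows. A match of letters is a description and not evidence of binding.

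The genes lie on 7 chromosomes, in GENCODE M21 on mm10. Dnmt1 (ENSMUSG00000004099.16) spans chr9:20907209-20959888 on the minus strand and Uhrf1 (ENSMUSG00000001228.14) chr17:56303321-56323486 on the plus strand. Dnmt3a (ENSMUSG00000020661.15) spans chr12:3806007-3914443 and Dnmt3b (ENSMUSG00000027478.15) chr2:153649450-153687730, both on the plus strand. Tet1 (ENSMUSG00000047146.17), Tet2 (ENSMUSG00000040943.12) and Tet3 (ENSMUSG00000034832.15) are on the minus strand, at chr10:62804570-62908996, chr3:133463679-133545139 and chr6:83362373-83459084. Antisense transcripts overlap exons of Dnmt3a, Dnmt3b and Tet2, and reached at most 2.29, 1.11 and 0.710 CPM in any library.

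Across the 16 groups, Uhrf1 had the widest span of levels and Tet2 the narrowest. The highest group mean was 45.9 times the lowest for Uhrf1, 11.9 times for Tet1, 7.20 times for Dnmt3a, 5.91 times for Dnmt1, 4.95 times for Dnmt3b, 3.18 times for Tet3 and 2.08 times for Tet2. With the groups put in order of level, 13 of the 15 neighbouring pairs of groups overlapped in their libraries for Dnmt1, Uhrf1, Dnmt3b and Tet3, 12 of 15 for Dnmt3a and Tet1, and 15 of 15 for Tet2. For Uhrf1 the groups that stood clear of their neighbour were those at the ends of the order, D5 P1 at the top and D49 P2 at the bottom. Set per kilobase of exon so that genes can be compared, mean levels in D5 P1 were 86.4 CPM per kb for Uhrf1 and 70.5 for Dnmt1, against 17.1 for Dnmt3a, 7.45 for Dnmt3b, 8.96 for Tet3, 6.82 for Tet2 and 2.91 for Tet1.

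**Figure D1:**
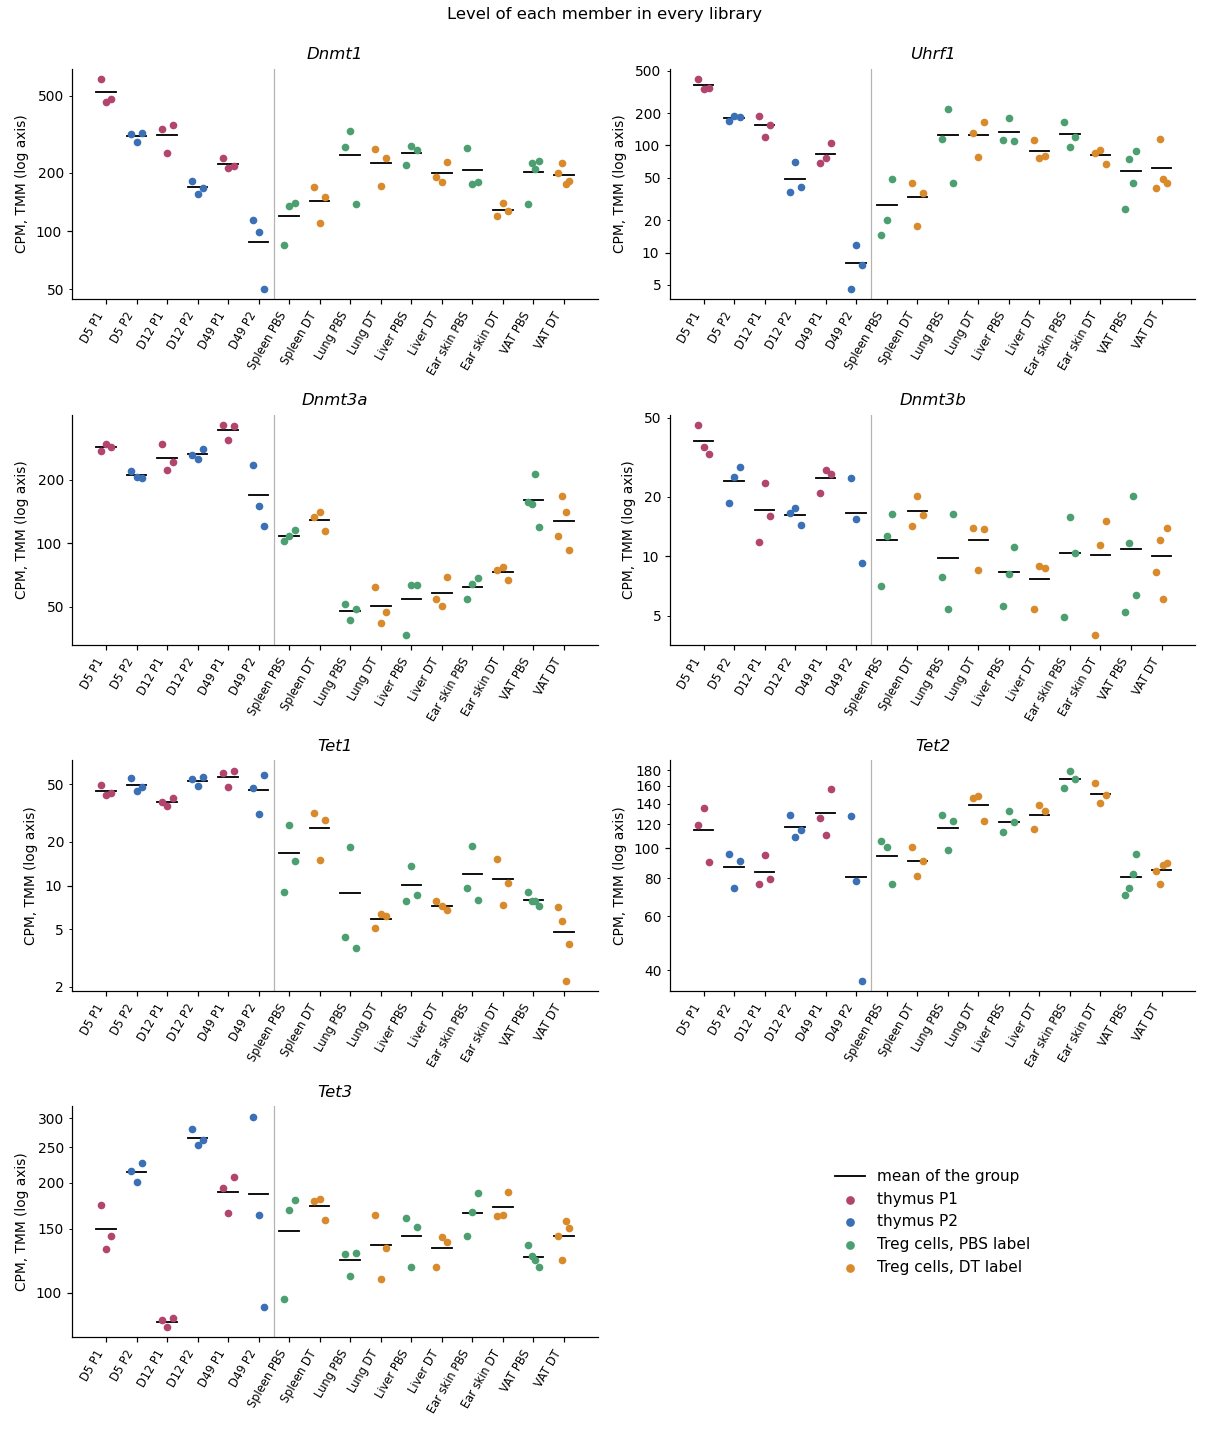
Level of each of the 7 genes in every library, in TMM-normalised CPM on a log axis, with a dot for each library and a black line at the group mean (P1 red, P2 blue, PBS-labelled green, DT-labelled orange). Dnmt1 and Uhrf1 step down with age in both thymic progenitors, Dnmt3a is lowest in lung and liver, and Tet1 drops from the thymus to the periphery.

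In the thymus, Dnmt1 and Uhrf1 fell with age in both progenitors and were lower in P2 than in P1 at every age. Dnmt1 was at 609.5, 466 and 483 CPM in the D5 P1 libraries, at 336, 252 and 352 CPM at D12, and at 237, 212 and 216 CPM at D49. In P2 it was at 318, 288 and 321 CPM at D5, at 181, 156 and 167 CPM at D12, and at 114, 99.2 and 50.3 CPM at D49. No library of one age overlapped another age within a progenitor, and at each age every P2 library was below every P1 library.

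Uhrf1 took the same steps over a wider span. Its P1 libraries were at 417, 340 and 347 CPM at D5, at 189.5, 120.1 and 154 CPM at D12, and at 68.3, 76.1 and 106 CPM at D49. Its P2 libraries were at 169.7, 188 and 186 CPM at D5, at 36.7, 69.5 and 41.0 CPM at D12, and at 4.58, 11.8 and 7.65 CPM at D49, the last from 16, 40 and 38 counts. These 3 libraries were the lowest for Uhrf1 of all 50, below every splenic Treg library. The mean ratio of Uhrf1 to Dnmt1, per kilobase, went from 1.23 ± 0.0397 (SD, n = 3) in D5 P1 to 0.656 in D49 P1, and from 1.02 in D5 P2 to 0.18 ± 0.0997 (SD, n = 3) in D49 P2.

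Tests used edgeR's quasi-likelihood test, with Benjamini-Hochberg adjustment over the 14696 genes tested and a threshold of 0.05. From D5 to D49 in P1, where 10.8% of all genes tested were called, Dnmt1 fell by 1.24 on the log2 scale (SE 0.169, adjusted p = 2.47e-05) and Uhrf1 fell by 2.15 (SE 0.234, adjusted p = 2.55e-06), and no other of the 7 was called. In P2, with 25.8% of genes called, Dnmt1 fell by 1.71 (SE 0.175, adjusted p = 3.47e-07) and Uhrf1 fell by 4.35 (SE 0.291, adjusted p = 3.02e-09). Leaving out D49 P2 libraries 2 and 3 gave falls of Dnmt1 by 1.46 and of Uhrf1 by 5.32. The median log2 change of the 7 was 0.17 in P1 and -0.21 in P2, against 0.00 and 0.08 over all genes tested.

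The intermediate steps were also called. From D5 to D12, Dnmt1 fell by 0.61 in P1 (adjusted p = 0.0171) and by 0.92 in P2 (adjusted p = 0.00153), with 18.4% and 5.19% of genes called. Uhrf1 fell by 1.14 in P1 (adjusted p = 0.00308) and by 1.92 in P2 (adjusted p = 4.32e-05). From D12 to D49, with 23.8% of genes called in P1 and 14.9% in P2, the log2 changes were -0.63 and -0.79 for Dnmt1 and -1.02 and -2.43 for Uhrf1, all 4 of them called. With the low-gene share as a covariate, the fall of Dnmt1 in P1 to D12 was 0.27 (adjusted p = 0.379), that in P2 from D12 to D49 was 0.40 (adjusted p = 0.351), and that of Uhrf1 in P1 from D12 to D49 was 0.91 (adjusted p = 0.114). Each of these 3 calls rests on a group whose libraries stood apart. Dnmt1 in P1 also lost its calls when single libraries were left out, at log2 changes of -0.59 to -0.48. Its D5 to D12 call had an adjusted p of 0.0979 without D5 P1 replicate 1 and 0.0869 without D12 P1 replicate 2. Its D12 to D49 call had 0.0614 without D12 P1 replicate 3, 0.0559 without D49 P1 replicate 2 and 0.0586 without D49 P1 replicate 3. In P2 the D12 to D49 call of Dnmt1 was lost with the compared libraries alone (adjusted p = 0.198).

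Whether the age effect differed between the progenitors was tested by the interaction. At D49, with 0.374% of genes called, Uhrf1 was the single one of the 7 called, with a D5 to D49 change lower in P2 than in P1 by -2.203 on the log2 scale (SE 0.367, adjusted p = 0.0194). It was called in 14 of 20 alternatives. Its adjusted p was 0.0535 without D49 P2 replicate 3, 0.0744 without D5 P1 replicate 2, 0.0532 without D5 P2 replicate 3, 0.112 with the covariate, 0.0742 with voom and 0.0535 with the replicate number as a block. At D12, with 3.71% called, none of the 7 passed edgeR's test, 2 had an unadjusted p under 0.05, and Tet3 came nearest at 0.98 (adjusted p = 0.0805). DESeq2 called 1 of the 7 there and voom 4.

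Between the progenitors of one age, Dnmt1 was lower in P2, with log2 changes of -0.72 at D5 (SE 0.167, adjusted p = 0.00435), -1.03 at D12 (adjusted p = 7.16e-05) and -1.18 at D49 (adjusted p = 3.43e-05). Uhrf1 differed by -0.99 at D5 (adjusted p = 0.00406), -1.78 at D12 (adjusted p = 9.23e-06) and -3.19 at D49 (adjusted p = 1.47e-07). The shares of all genes called were 15.4%, 41.3% and 29.4% at the 3 ages. These 6 calls stood under each alternative tried for them.

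**Figure D2:**
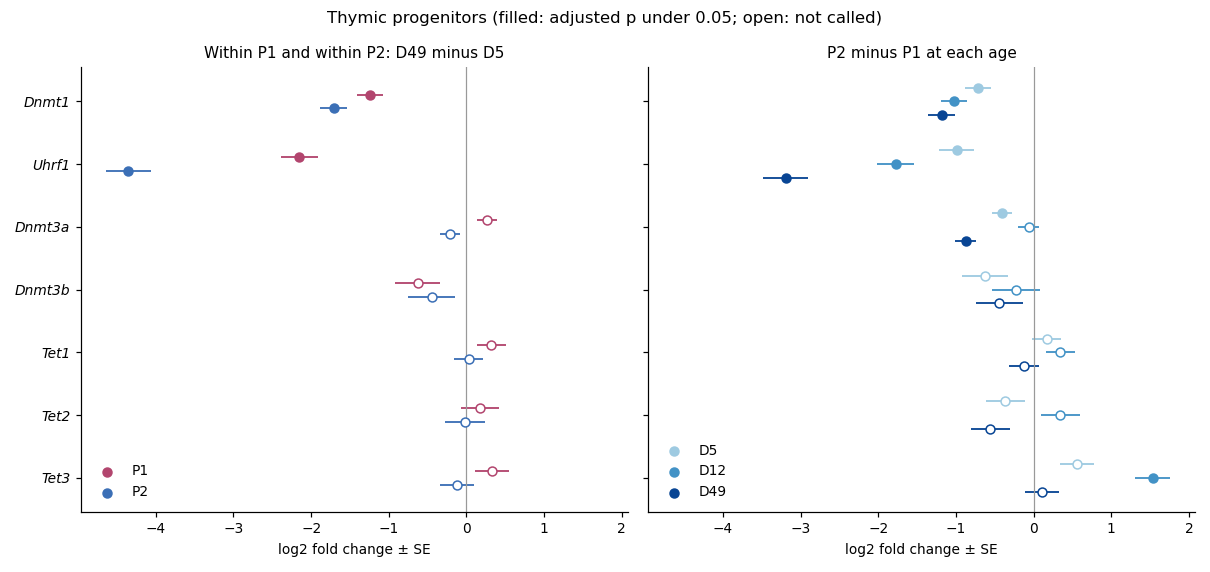
Log2 fold change of each gene in the thymus, with bars of 1 SE: left, D49 minus D5 within P1 and within P2, and right, P2 minus P1 at D5, D12 and D49, where filled points passed an adjusted p of 0.05. Uhrf1 has the lowest points, at -4.35 in P2 with age and -3.19 in P2 against P1 at D49, and Tet3 stands out upward at D12 with 1.53.

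Genes that work beside the maintenance pair fell too. Of 6 such genes, 4 fell from D5 to D49 in P1, the same number in P2, and 4 were lower in P2 than in P1 at each age, with none called higher. The numbers called lower were the same with the covariate and without D49 P2 libraries 2 and 3. Cdca7, which with the helicase Hells opens nucleosomes for methylation, was at 78.7 ± 13.5 CPM in D5 P2 and 14.8 ± 1.07 CPM in D49 P2 (SD, n = 3 each), a log2 change of -2.27 (adjusted p = 7.6e-08). Lig1, the ligase of lagging-strand synthesis that also draws UHRF1 to replicating DNA, changed by -2.40 (adjusted p = 1.28e-07) and Hells by -1.92 (adjusted p = 8.03e-05) in the same comparison. With the covariate the 3 changes were -2.33, -2.87 and -2.24, all called. Uhrf2, a relative of Uhrf1, was not called with age in either progenitor. Usp7, a deubiquitinase that binds DNMT1, was not called from D5 to D49, but rose from D12 to D49 in P1 by 0.44 (adjusted p = 0.0359). The median over the 6 was -1.61, beside 0.08 over all genes. Pcna, the replication clamp, is counted in this list and in the next.

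Replication genes moved with the maintenance pair. Of 17 genes of S phase, 17 fell from D5 to D49 in P1 and 16 in P2, and 15, 16 and 14 were lower in P2 than in P1 at D5, D12 and D49, with none higher. With the covariate the counts were 17 and 16 with age and 15 at each age between progenitors, and without D49 P2 libraries 2 and 3 they were 17, 16, 16, 17 and 16. Their summed level fell from 5954 ± 173.6 CPM in D5 P1 to 2163 ± 148 in D49 P1, and from 2994 ± 89.2 in D5 P2 to 861.5 ± 43.4 in D49 P2 (SD, n = 3 each). Of 10 mitosis genes, all 10 fell with age in each progenitor, but none was called between P1 and P2 at D5. Over the 16 group means, Pearson's r with the summed S-phase level was 0.962 for Dnmt1 and 0.901 for Uhrf1, against 0.115 for Dnmt3a and 0.0691 for Tet1, as a description of groups that share library preparation and sort.

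**Figure D3:**
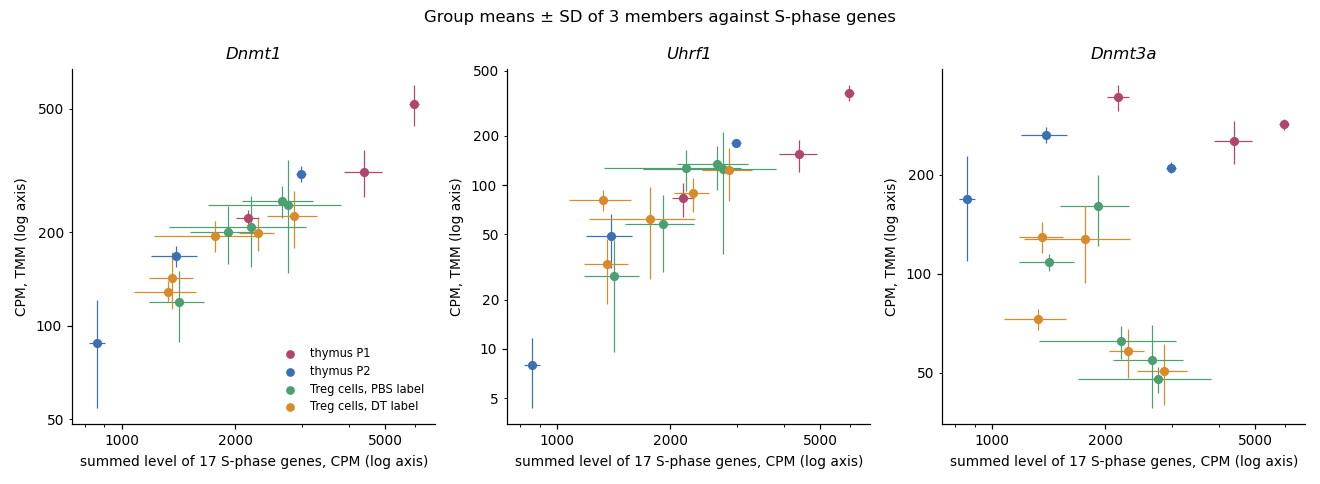
Group mean level, with SD bars, of Dnmt1, Uhrf1 and Dnmt3a (CPM, log axis) against the summed CPM of 17 S-phase genes (log axis) for the 16 groups. Dnmt1 and Uhrf1 rise along the axis. Mean Dnmt3a is at 169 to 345 CPM in thymic groups and 47.9 to 161 CPM in peripheral groups. The libraries of the nearest groups, D49 P2 and PBS-labelled VAT, overlap.

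Marker genes of other cells also differed between these groups. Of 16 marker lists, 6 did not overlap between D49 and D5 in P2, and 8 did not in P1. The 8 macrophage and monocyte markers summed to 20.4 to 105 CPM in D49 P2, against 11.2 to 19.8 in D5 P2, where Lyz2 and Adgre1 were at 0. The 6 CD8 and double-positive thymocyte markers summed to 100.4 to 108 CPM in D49 P1 against 56.3 to 62.8 in D5 P1, and to 36.8 to 55.3 in D49 P2. Ptcra was at 0 in those 3 groups and Rag1 in D49 P1. Between P2 and P1, 7, 9 and 8 lists did not overlap at D5, D12 and D49. The CD8 and double-positive markers were lower in P2, at 37.9 to 47.1 CPM at D5 and 26.4 to 32.9 at D12, against 76.6 to 82 in D12 P1. The 6 B cell markers were higher in P2, at 342 to 381 CPM against 103 to 158 at D5, where Ms4a1 was at 0 in both. The part of these lists in the changes of Dnmt1 and Uhrf1 was not tested.

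Dnmt3a, the main de novo enzyme of T cells, was not called between D5 and D49 in either progenitor. In P1 its libraries were at 273, 295 and 288 CPM at D5, at 297, 223 and 242 CPM at D12, and at 365, 308 and 361 CPM at D49. In P2 they were at 219, 207 and 204 CPM at D5, at 264, 251 and 281 CPM at D12, and at 235, 150.2 and 121 CPM at D49. The D49 P1 libraries were the highest of the thymus, and D49 P2 libraries 2 and 3 the lowest.

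From D5 to D49 the log2 change of Dnmt3a was 0.26 in P1 (adjusted p = 0.232) and -0.21 in P2 (adjusted p = 0.263). It was lower in P2 than in P1 at D49, by a log2 change of -0.88 (SE 0.132, adjusted p = 4.49e-05), and this call stood without D49 P2 libraries 2 and 3 at -0.53 (adjusted p = 0.00418). At D5 the change was -0.41 (adjusted p = 0.0387), a call that 7 of 14 alternatives lost. The fall in P2 from D12 to D49, by 0.50 (adjusted p = 0.0183), came to -0.16 without those libraries (adjusted p = 0.639) and was called in 8 of 14 alternatives. Without them Dnmt3a was called higher in D49 P1 than in D5 P1, at 0.31 (adjusted p = 0.0126).

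Dnmt3b, the other de novo enzyme, was scarce, with 11 to 235 counts a library. Its D5 P1 libraries were the highest of all 50, at 45.9, 35.5 and 32.7 CPM, and the D12 P1 libraries were at 11.8, 23.5 and 16.03 CPM. The fall between them, by 1.01 on the log2 scale (SE 0.296, adjusted p = 0.0234), was the single call on Dnmt3b in 27 tests, and 5 of 14 alternatives lost it (0.221 with the covariate). Of the 3 measured histone methyltransferases that lay down the marks DNMT3 enzymes read, Nsd2 fell with age, from 114 to 46.8 CPM in P1 (log2 change -1.29, adjusted p = 0.00124) and from 76.2 to 14.01 CPM in P2 (-2.27, adjusted p = 4.04e-06, and -2.78 with the covariate). Nsd1 and Setd2 were not called from D5 to D49, though Nsd1 in P2 was at 0.38 (adjusted p = 0.0386) without D49 P2 libraries 2 and 3. Per kilobase, the share of Dnmt1 in the summed Dnmt1, Dnmt3a and Dnmt3b was 74% in D5 P1 and 46.8% in D49 P2, and that of Dnmt3a was 18.2% and 40.7%. In the periphery the share of Dnmt1 was 64.2% in PBS-labelled spleen and 87.6% in liver.

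Among the TET enzymes of the thymus, Tet3 changed most, through 1 group. Its D12 P1 libraries were at 84.3, 80.9 and 85.4 CPM, below each of the other 47 libraries. D5 P1 libraries were at 174, 132 and 143 CPM and D49 P1 libraries at 193, 165.5 and 207 CPM. In P2 they were at 216, 201.5 and 227 CPM at D5, at 281, 254 and 262 CPM at D12, and at 303, 163.5 and 91.6 CPM at D49. The D12 P2 libraries lay above all thymus libraries but D49 P2 replicate 1.

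At D12, Tet3 was higher in P2 than in P1 by a log2 change of 1.53 (SE 0.226, adjusted p = 2.77e-05), and by 1.03 with the low-gene covariate (adjusted p = 0.000323). In P1 it fell by 0.71 from D5 to D12 (adjusted p = 0.0328) and rose by 1.04 from D12 to D49 (adjusted p = 0.00353). Because these rest on the D12 P1 libraries with many detected genes, the values with the covariate stand beside them: -0.20 (adjusted p = 0.612) and 0.52 (adjusted p = 0.109). The fall was also lost without any 1 of its 6 libraries. At D5 the Tet3 difference was 0.56 (adjusted p = 0.0985) with no overlap between libraries. That difference was called in 6 of 14 alternatives, among them DESeq2 (adjusted p = 0.0433), voom (0.000198) and edgeR with the covariate (0.00968).

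The Tet3 comparisons at D49 turned on which P2 libraries entered. P2 minus P1 was 0.11 (adjusted p = 0.746), and 0.70 (adjusted p = 0.00043) without libraries 2 and 3. From D5 to D49 in P2 the change was -0.12 (adjusted p = 0.739), and 0.48 (adjusted p = 0.023) without them, so the sign turned. Without D49 P2 replicate 1 it was -0.57 (adjusted p = 0.00992).

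Tet1 and Tet2 had no call by edgeR in the 11 thymic contrasts, where each had 1 unadjusted p under 0.05. DESeq2 gave 0 calls for both, and voom gave 1 for Tet1 and 2 for Tet2. Tet1 lay between 31.4 and 61.8 CPM in all 18 thymus libraries. Tet2 lay between 37.0 and 156 CPM, with D49 P2 replicate 3 the lowest and D49 P1 replicate 3 the highest. Tet2 without D49 P2 libraries 2 and 3 was called in P1 from D12 to D49, at 0.53 (adjusted p = 0.00739), and Tet1 at 0.47 (adjusted p = 0.0206).

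In the repair pathway that removes oxidised 5-methylcytosine, 1 of 10 measured genes fell from D5 to D49 in P1 and 2 in P2. These shares, 10% and 20%, lie below the 10.8% and 25.8% of all genes called either way. Neil3, a DNA glycosylase best known from dividing cells, went from 63.8 ± 2.64 to 12.6 ± 2.60 CPM in P1 (log2 change -2.35, adjusted p = 5.37e-05) and from 58.0 ± 4.16 to 2.72 ± 2.45 CPM in P2 (-4.22, adjusted p = 1.83e-07; SD, n = 3 each), where the change was -5.25 with the covariate. Parp1 changed by -0.34 in P2 (adjusted p = 0.0348), a call lost with the covariate (0.131) and without D49 P2 libraries 2 and 3 (0.0689). Ogt, the O-GlcNAc transferase that binds TET proteins, rose in P1 by 0.73 (adjusted p = 0.000504). At D12 Ogt was at 426 ± 9.26 CPM in P2 and 149.8 ± 18.4 CPM in P1 (SD, n = 3 each), a log2 change of 1.38 (adjusted p = 7.98e-08), and of 1.12 with the covariate.

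Tet1 made up a larger share of TET transcripts in the thymus than in the periphery. Per kilobase, it was 15.6% ± 1.08 of the summed Tet1, Tet2 and Tet3 in D5 P1 and 13% to 19.8% as a mean in the 6 thymic groups, against 2.25% to 9.22% in the 10 peripheral groups. The lowest thymic library was at 10.6% and the highest peripheral library at 10.9%, in DT-labelled spleen. D49 P2 spread from 10.6% to 32.7%. Strain, age, tissue and sort differed together between thymus and periphery, so these sources cannot be told apart and no test was made.

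**Figure D4:**
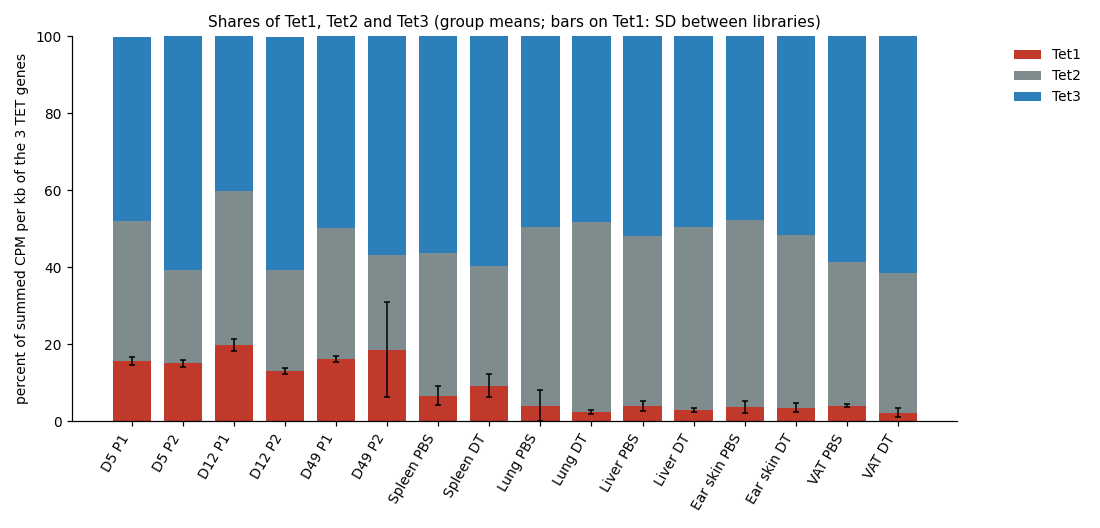
Mean share of Tet1, Tet2 and Tet3 in their summed CPM per kilobase in each of the 16 groups, as stacked bars in percent from 0, with SD bars on the Tet1 share. Tet1 takes 13% to 19.8% in thymic groups and 2.25% to 9.22% in peripheral groups, and Tet3 reaches 61.6% in DT-labelled VAT.

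In the periphery, the spleen had the lowest mean Dnmt1 and Uhrf1 in the PBS-labelled arm, and the non-lymphoid tissues had more. Dnmt1 was at 84.3, 135 and 139.5 CPM in PBS-labelled spleen, at 272, 327 and 138 CPM in lung, at 218.5, 276 and 263 CPM in liver, and at 269, 176 and 178 CPM in ear skin. In PBS-labelled VAT it was at 138.5, 225, 209.6 and 231 CPM. Every liver and ear skin library was above every spleen library, while lung replicate 3 and VAT replicate 1 fell within the spleen range.

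Uhrf1 was at 14.7, 20.2 and 48.7 CPM in PBS-labelled spleen, at 114, 218 and 44.4 CPM in lung, at 111, 179.8 and 110.3 CPM in liver, and at 167, 96.6 and 120.0 CPM in ear skin. In VAT it was at 25.3, 74.2, 44.8 and 88.4 CPM. Liver and ear skin again stood clear of spleen, and lung replicate 3 and 2 VAT libraries did not.

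All tissue comparisons within an arm share the 3 spleen libraries, and 17731 genes were tested. In the PBS-labelled arm, 15.8% of genes were called in lung, 17% in liver, 23.5% in ear skin and 14.8% in VAT. Dnmt1 was higher than in spleen by a log2 change of 1.07 in lung (SE 0.244, adjusted p = 0.00177), 1.11 in liver (adjusted p = 0.00135), 0.91 in ear skin (adjusted p = 0.0054) and 0.76 in VAT (adjusted p = 0.0189). Uhrf1 was higher by 2.21 in lung (SE 0.567, adjusted p = 0.00815), 2.303 in liver (adjusted p = 0.00588) and 2.32 in ear skin (adjusted p = 0.00401), and in VAT the change was 1.08 (adjusted p = 0.195).

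Some of these calls were lost when single libraries were left out. Without spleen PBS replicate 1 the Uhrf1 changes were 1.86 in lung (adjusted p = 0.068) and 1.97 in liver (adjusted p = 0.0532), and Dnmt1 in ear skin had an adjusted p of 0.0755. Without lung PBS replicate 2, Uhrf1 in lung was 1.54 (adjusted p = 0.0872), and without ear skin PBS replicate 1, Dnmt1 in ear skin had an adjusted p of 0.0669. Dnmt1 in lung had an adjusted p of 0.0751 with the compared libraries alone. Dnmt1 in VAT lost its call under 7 of 13 alternatives.

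In the DT-labelled arm, 14.4%, 13%, 22.1% and 8.8% of genes were called in lung, liver, ear skin and VAT against spleen. Uhrf1 was at 45.1, 17.6 and 36.2 CPM in spleen, at 129.9, 77.3 and 165 CPM in lung, at 113, 75.6 and 79.2 CPM in liver, and at 85.8, 90.03 and 67.7 CPM in ear skin. In VAT it was at 40.2, 115, 48.1 and 45.0 CPM. All lung, liver and ear skin libraries were above all spleen libraries.

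Uhrf1 was called in lung at 1.94 (SE 0.56, adjusted p = 0.0203), a call that 5 of 12 alternatives lost, while liver stood at 1.47 (adjusted p = 0.0861) and ear skin at 1.44 (adjusted p = 0.0682). Fitted with the compared libraries alone, both were called, at 1.497 (adjusted p = 0.00237) and 1.55 (adjusted p = 0.000635). Dnmt1 had no call by edgeR in this arm (3 of 4 unadjusted p under 0.05, 1 call by DESeq2 and 1 by voom), at 0.68 in lung (adjusted p = 0.0542), 0.51 in liver, -0.02 in ear skin and 0.48 in VAT. With the compared libraries alone it was called in lung, liver and VAT.

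**Figure D5:**
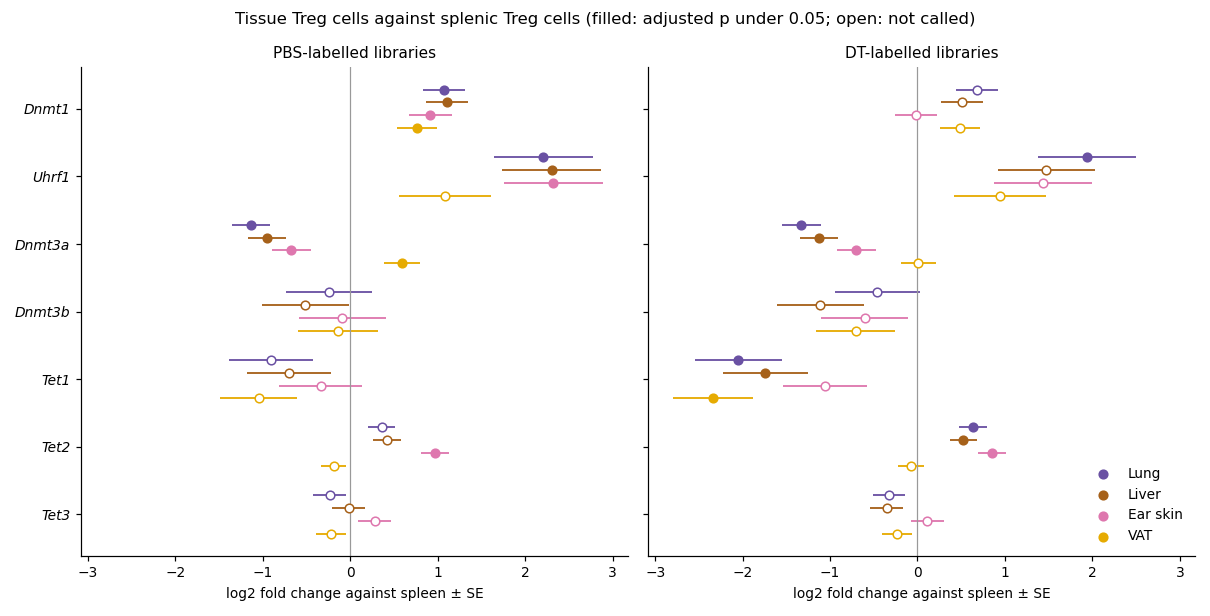
Log2 fold change of each gene against spleen, with bars of 1 SE, in lung, liver, ear skin and VAT, for the PBS-labelled and the DT-labelled arm (filled points passed an adjusted p of 0.05). Uhrf1 lies between 0.95 and 2.32 in all 8 comparisons, and Dnmt3a lies between -1.33 and -0.67 in lung, liver and ear skin.

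Replication genes were called higher in the same tissues. Against PBS-labelled spleen, 12 of 17 S-phase genes were higher in lung, 11 in liver, 9 in ear skin and 2 in VAT, with none lower, and 7, 10, 6 and 0 of 10 mitosis genes. In the DT-labelled arm 11, 4, 1 and 0 of the S-phase genes were called higher. Of the 6 partners of the maintenance pair, 4 were higher in PBS-labelled lung, 4 in liver, 2 in ear skin and 1 in VAT, among them Hells at 11.2 ± 3.05 CPM in spleen and 36.1 ± 19.5 CPM in ear skin (SD, n = 3 each; log2 change 1.82, adjusted p = 0.000647). Over the 10 peripheral group means, r with the summed S-phase level was 0.918 for Dnmt1 and 0.779 for Uhrf1.

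Dnmt3a ran the other way in 3 of the 4 tissues. It was at 102, 108 and 115 CPM in PBS-labelled spleen, at 51.7, 43.1 and 48.7 CPM in lung, at 36.8, 63.8 and 63.5 CPM in liver, and at 54.6, 63.9 and 68.6 CPM in ear skin. In VAT it was at 157, 154, 214 and 119.6 CPM. All lung, liver and ear skin libraries lay below all spleen libraries, and all 4 VAT libraries above them.

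Against PBS-labelled spleen, Dnmt3a was lower by a log2 change of -1.14 in lung (SE 0.221, adjusted p = 0.000285), -0.95 in liver (adjusted p = 0.002) and -0.67 in ear skin (adjusted p = 0.0223), and higher by 0.59 in VAT (adjusted p = 0.0422). In the DT-labelled arm the changes were -1.33 in lung (adjusted p = 3.24e-05), -1.13 in liver (adjusted p = 0.000332), -0.70 in ear skin (adjusted p = 0.0191) and 0.01 in VAT (adjusted p = 0.988). The lung and liver calls stood under each alternative in both arms. Ear skin was called in 7 of 12 alternatives in the PBS-labelled and 8 of 12 in the DT-labelled arm. It missed the threshold in both with DESeq2 (adjusted p = 0.0518 and 0.0749) and with RLE size factors (0.0556 and 0.078), which moved the median of all genes by 0.15 in the DT-labelled contrast. In PBS-labelled ear skin, adjusted p was also 0.0531 without spleen PBS replicate 3, 0.0868 without ear skin PBS replicate 1 and 0.0791 with the compared libraries alone, and in DT-labelled ear skin 0.0651 without spleen DT replicate 5 and 0.0515 without ear skin DT replicate 6. The PBS-labelled VAT call was lost in 9 of 13 alternatives. Over the 10 peripheral group means, r of Dnmt3a with the summed S-phase level was -0.714.

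VAT and ear skin were set against each other directly. Dnmt3a was higher in VAT by a log2 change of 1.27 in the PBS-labelled arm (SE 0.21, adjusted p = 5.21e-05; 13.8% of genes called) and by 0.71 in the DT-labelled arm (adjusted p = 0.0201; 13% called). The second value came from 109, 168, 140.3 and 92.6 CPM in VAT and 74.5, 77.4 and 67.0 CPM in ear skin, and was lost under 6 of 13 alternatives (0.0835 with RLE size factors). Those factors moved the median of all genes by -0.12 in the PBS-labelled and -0.16 in the DT-labelled contrast. Dnmt3b was called by none of edgeR, DESeq2 and voom in the 10 peripheral tissue contrasts fitted over all 32 libraries, with 1 unadjusted p under 0.05. With the compared libraries alone, edgeR called it lower in DT-labelled liver than in spleen, at -1.08 (adjusted p = 0.0445). Its peripheral libraries lay between 4.02 and 20.2 CPM.

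Among the peripheral tissues, Tet2 had its highest mean in ear skin in both arms. Its PBS-labelled libraries were at 158, 179 and 168 CPM in ear skin, at 106, 101 and 76.4 CPM in spleen and at 70.4, 74.4, 82.8 and 95.9 CPM in VAT. Its DT-labelled libraries were at 163, 141 and 149 CPM in ear skin, at 101, 81.5 and 91.2 CPM in spleen and at 84.2, 76.7, 88.3 and 89.7 CPM in VAT. No ear skin library overlapped the spleen or VAT of its arm. DT-labelled lung, at 146, 148 and 123 CPM, did overlap DT-labelled ear skin. Ear skin was not tested against lung or liver. Its libraries also had more detected genes than those of spleen and VAT, and the part of this was not tested.

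Tet2 was higher in ear skin than in spleen by 0.97 on the log2 scale in the PBS-labelled arm (SE 0.157, adjusted p = 1.2e-05) and by 0.85 in the DT-labelled arm (adjusted p = 0.000109). VAT minus ear skin was -1.16 (adjusted p = 4.31e-07) and -0.92 (adjusted p = 2.94e-05). In the DT-labelled arm Tet2 was also higher in lung, by 0.63 (adjusted p = 0.00424, and 0.0565 with no filter on low counts), and liver, by 0.52 (adjusted p = 0.021), the latter lost under 5 of 12 alternatives. In the PBS-labelled arm those changes were 0.36 (adjusted p = 0.124) and 0.42 (adjusted p = 0.0613).

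Tet1 was low throughout the periphery and lowest in DT-labelled VAT, where it was at 7.10, 5.68, 2.201 and 3.97 CPM. DT-labelled spleen had 31.7, 14.98 and 28.2 CPM, lung 5.07, 6.37 and 6.17 CPM and liver 7.86, 7.20 and 6.74 CPM. Every spleen library lay above every library of those 3 tissues. Against spleen, Tet1 was lower by a log2 change of -2.34 in VAT (SE 0.456, adjusted p = 0.000438), -2.05 in lung (adjusted p = 0.00351) and -1.74 in liver (adjusted p = 0.0134), the liver call being lost in 3 of 12 alternatives.

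In the PBS-labelled arm edgeR called Tet1 in none of the 4 tissues, with 1 unadjusted p under 0.05, and DESeq2 called 0 and voom 2. Spleen was at 9.06, 26.2 and 14.7 CPM and lung at 4.41, 18.4 and 3.68 CPM, a log2 change of -0.91 (adjusted p = 0.226). Without lung PBS replicate 2 that change was -2.004 (adjusted p = 0.00706). Tet3 had 1 call in the periphery, lower in VAT than in ear skin of the PBS-labelled arm, at -0.50 (adjusted p = 0.0479), and 8 of 13 alternatives lost it.

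Marker lists of other cells also separated the tissues, with 6, 9, 10 and 4 of 16 lists not overlapping spleen in PBS-labelled lung, liver, ear skin and VAT. The 6 dendritic cell markers summed to 60.4 to 79.5 CPM in PBS-labelled lung, 45.4 to 48.4 in liver and 51 to 80.6 in ear skin, against 16.3 to 32.2 in spleen, with none of the 6 at 0. The 6 B cell markers summed to 1530 to 1910.0 CPM in spleen, 682 to 1110.0 in lung, 291 to 631 in ear skin and 395 to 5990.0 in VAT. The 6 mesothelial markers summed to 107 to 169 CPM in VAT against 7.45 to 9.29 in spleen. None of these dendritic cell, B cell and mesothelial markers was at 0 in the groups named. In the DT-labelled arm 6, 7, 8 and 5 of the 16 lists did not overlap spleen. Their part in the tissue differences of the 7 genes was not tested.

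Between the arms, no test of the 7 genes in the 5 tissues passed edgeR's threshold, 0 of 35, where 0% of all genes were called in spleen, lung and liver, 0.427% in ear skin and 0.116% in VAT. The log2 changes, DT-labelled minus PBS-labelled, ran from -0.71 to 0.57, and 4 had an unadjusted p under 0.05. Those 4 were Dnmt1 and Uhrf1 in ear skin and in liver, where the changes were -0.36 and -0.60 (adjusted p = 0.999 for both). DESeq2 called 1 of the 35 and voom 0.

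In ear skin, Dnmt1 was at 269, 176 and 178 CPM in the PBS-labelled and 120.1, 139.9 and 127 CPM in the DT-labelled libraries. Uhrf1 was at 167, 96.6 and 120.0 CPM and at 85.8, 90.03 and 67.7 CPM. Neither gene overlapped between the arms. Both, with Tet1 in VAT, make up the 3 of 35 tests between arms without overlap. No share over all genes is at hand for this, so it is a description only. The changes were -0.66 for Dnmt1 (95% interval -1.02 to -0.295, adjusted p = 0.107) and -0.62 for Uhrf1 (-1.03 to -0.199, adjusted p = 0.244), and DESeq2 gave Dnmt1 an adjusted p of 0.0482. None of the 17 S-phase genes was called there, with a median of -0.74 beside -0.01 over all genes. The 8 macrophage and monocyte markers summed to 19.1 to 25 CPM in DT-labelled against 12.2 to 18.2 in PBS-labelled ear skin, with none at 0, and the 6 innate-like T cell markers to 270.0 to 354 against 206 to 261, with Trgc1 at 0 in the DT-labelled group. The part of either was not tested.

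In VAT the intervals of the difference between arms were -0.325 to 0.317 for Dnmt1 and -0.91 to 1.17 for Uhrf1. Tet1 there was at 8.98, 7.79, 7.82 and 7.23 CPM in the PBS-labelled arm, each above every DT-labelled library, a change of -0.71 (adjusted p = 0.723). Whether the DT effect in VAT differed from that in spleen was tested directly, and none of the 7 was called by edgeR, where 0.0169% of genes were. Of those 7 tests, 1 had an unadjusted p under 0.05, and DESeq2 and voom called 0.

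Genes whose group means ran most like each of the 7 were found by Pearson's r over all 16 groups among 9708 genes. For Dnmt1 they included Rrm1 (0.97) and Dut (0.966), and for Uhrf1 they were Ncapg (0.975), E2f7 (0.963) and Cit (0.961). For Dnmt3a they were Senp1 (0.973), Wdr46 (0.968) and Wdr6 (0.965), and for Dnmt3b Cand2 (0.939), Smarcb1 (0.93) and Mboat1 (0.922). For Tet1 they were Ptpn12 (0.981), Trpm1 (0.96) and Bin1 (0.95), and for Tet3 Ankrd16 (0.928), Phkg2 (0.896) and Cic (0.891). For Tet2 they included Actr5 (0.871) and Dusp16 (0.827). Ptpn12 was nearest to Tet1 also over the 10 peripheral groups (0.933), where Ahcy was nearest to Uhrf1 (0.996). Among the 7 themselves, r over 16 groups was 0.922 for Dnmt1 with Uhrf1, 0.838 for Dnmt3b with Tet1 and 0.823 for Dnmt3a with Tet1. Over the 10 peripheral groups alone, r for these pairs was 0.773, 0.581 and 0.28. Over the 6 thymus groups it was 0.993, 0.191 and 0.412. The high values of the pairs with Tet1 thus span the step from thymus to periphery.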

How the data were processed

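Gene counts of 50 mouse RNA-seq libraries were taken from the whole-series table that the authors deposited. STAR 2.7.3a, featureCounts and mm10 are named in the submitters' processing notes; which annotation and strand setting were used is not given in the sources used here. The 7 genes and all gene lists were chosen with earlier results of these data known.

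Counts were filtered (filterByExpr, minimum 10), scaled by TMM and tested with edgeR 4.0.16 (R 4.3.3): 1 fit of 18 thymus libraries, 1 of 32 peripheral libraries, and each tissue alone for DT against PBS. P-values were adjusted by Benjamini-Hochberg over all genes tested. Levels are TMM-normalised CPM, except that the sums of cell type markers are CPM of a library's total counts without TMM scaling. Lengths are GENCODE M21 exon unions, and promoters come from RefSeq. DESeq2 1.42.0, limma 3.58.1 voom, other scaling and filters and leaving out libraries were tried. On simulated data, 71% of 2-fold and 96% of 4-fold changes were recovered for D49 against D5 in P1 (13523 genes), and 53% and 96% for VAT against spleen (16040 genes).

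Named genes were the 7, the 3 genes most like each by group means (at least 5 CPM), and up to 4 per list with the smallest adjusted p. Some of the most alike genes and markers are not reported here. Every pair of libraries within a group differed by more than sampling noise, with 3.61 to 66.5 units of chi-square for each degree of freedom. The highest values, 52.5 and 66.5, were those of PBS-labelled spleen replicate 1 with replicates 2 and 3, whose own pair was at 16.0. All PBS-labelled comparisons with spleen share that library.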

Additional observations from a re-analysis of the deposited data

Results flagged for a closer look

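Uhrf1 in DT-labelled VAT had 1 library far from its group, at 115 CPM (114.9), where the other 3 were at 40.2 to 48.1 CPM. Of groups this size, 14 gene and group pairs were examined (7 genes in both VAT groups), and chance sets about 1 in 20 groups apart in this way.

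The change of Uhrf1 from D5 to D49 differed between the thymic progenitors by a direct test, being lower in P2 than in P1 by a log2 difference of -2.20 (edgeR adjusted p = 0.0194). It was called in 14 of 20 alternatives, with an adjusted p of up to 0.112. The D49 P2 libraries behind it held 16, 40 and 38 counts of Uhrf1.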

How the results depend on the processing

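Of 189 tests of the 7 genes, 53 were called, and 29 of these were called in every alternative. Of the other 136, 90 were called in none. No share over all genes is at hand for these totals, and the shares of single contrasts stand with their values above. Calls with age in the thymus numbered 16 of 42 (1 higher, 15 lower), and 9 with the low-gene share as a covariate. They were 22 (8 higher, 14 lower) without D49 P2 libraries 2 and 3 or with the compared libraries alone, and 24 (7 higher, 17 lower) with voom. The age interaction had 1 call, against 5 with no filter, 5 with voom, 2 with DESeq2, 3 with the compared libraries alone, 3 without D49 P2 libraries 2 and 3 and 0 with the covariate. In the DT-labelled arm 10 calls against spleen became 16 with the compared libraries alone. DT against PBS had 0 calls and 1 with DESeq2. Tet3 from D5 to D49 in P2 turned from -0.12 to 0.48 without D49 P2 libraries 2 and 3. The cause was not tested.

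Leaving out 1 library at a time gave 13 to 21 calls with age, 8 to 11 for P2 against P1, 0 to 4 for the interaction, 9 to 12 and 7 to 11 for tissue against spleen in the PBS- and DT-labelled arms, 3 to 5 for VAT against ear skin (3 without ear skin DT replicate 4 or 6), and 0 to 0 for DT against PBS and for its difference between VAT and spleen. The interaction had 0 calls without D5 P1 replicate 2 or D5 P2 replicate 3, 2 without D49 P2 replicate 3 and 4 without D49 P2 replicate 1.

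Whether libraries with the same replicate number belong together was left unresolved. In 0 of 19 pairings was every same-number correlation over 0.1 (-0.246 to 0.269). In 2 pairings, PBS-labelled ear skin with spleen and DT-labelled liver with spleen, each library correlated best with its own number. With so few libraries in a group, these correlations cannot exclude a shared animal. With the replicate block, calls were 16 with age, 9 for P2 against P1, 0 for the interaction, 11 and 16 for the arms (16 libraries each) and 5 for VAT against ear skin. No paired analysis was possible for DT against PBS because the arms share no numbers.

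The number of all genes called moved by over 1.5 times in most contrasts, for D49 against D5 from 1587 to between 1029 and 3155 in P1, from 3788 to between 1093 and 6035 in P2, and for the D49 interaction from 55 to between 2 and 1243. Dnmt3b and peripheral Tet1, down to 11 and 8 counts a library, limit what could be seen.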

Other observations

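Neil1, a glycosylase of the repair of oxidised bases, was at 26.5 ± 8.78 CPM in PBS-labelled spleen, 155 ± 53.1 CPM in lung and 256 ± 15.4 CPM in liver (SD, n = 3 each), log2 changes of 2.60 (edgeR adjusted p = 2.03e-09) and 3.31 (adjusted p = 8.41e-12). Tdg, the glycosylase that cuts out the oxidised forms made by TET enzymes, was higher in the same tissues by 1.17 and 0.95. Of the 11 repair genes, 2 were higher and 2 lower in lung, and 2 higher and 4 lower in liver, where 15.8% and 17% of all genes were called.

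Among methyl donor genes, Ahcy, which clears the by-product of methyl transfer, was at 21.6 ± 11.7 CPM in PBS-labelled spleen and 54.1 ± 10.3 CPM in ear skin (SD, n = 3 each), a log2 change of 1.44 (edgeR adjusted p = 0.00036), while Mat2a, which makes S-adenosylmethionine, changed by -1.32 (adjusted p = 0.000138). Among readers of methylated CpG, Mbd2 was higher in ear skin by 1.80 (adjusted p = 4.98e-08) and Zbtb38 was higher in VAT by 1.16 (adjusted p = 5.05e-05). At D12, Zbtb4 was at 39.0 CPM in P2 and 4.67 CPM in P1, a log2 change of 2.90 (adjusted p = 1.73e-06) and of 2.58 with the low-gene share as a covariate, and D12 P1 is the group whose libraries had more detected genes.

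The 6 genes taken as known to lose methylation in Treg cells include Foxp3 and Il2ra. The thymic gates sort on both and the peripheral gate on Foxp3, so their levels are bound by the sort. Of the 6, 5 rose from D5 to D49 in P2 and none fell, with 25.8% of all genes called. The 5 included Tnfrsf18, which rose by 1.39, and Ikzf4, by 0.88 on the log2 scale. With the covariate the count was 5 and these changes were 1.35 and 1.03, and without D49 P2 libraries 2 and 3 the count was 4. The steps did not all run this way: in P2 from D12 to D49, 0 rose and 2 fell (Foxp3 and Ikzf2, 14.9% of genes called), and in P1 from D5 to D12, 1 rose and 2 fell (Ctla4 and Ikzf2, 18.4% called). In PBS-labelled VAT 5 of the 6 were higher than in spleen, with 14.8% of genes called, led by Ctla4 at 1.76 (edgeR adjusted p = 6.39e-08).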
